A study of Homo sapiens with 2 samples.

Results

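The keratin and keratin-associated protein (KRTAP) genes were followed in a chromatin immunoprecipitation sequencing (ChIP-seq) study of TCF19 in the Ishikawa line, grown from a human endometrial cancer. Members were the RefSeq GRCh38 protein-coding genes of chromosomes 1 to 22 whose symbol is KRT or KRTAP followed by a digit. The rule gave 149 of 19126 genes, of which 55 were keratins and 94 KRTAP genes. The study compared cells infected with a negative-control virus (control) and cells infected with a virus that drives extra TCF19 (overexpression), each lentiviral and each followed by puromycin selection. The time of infection and the formaldehyde fixation (concentration and duration) were the same for both. TCF19 was precipitated from both with the same antibody. Each condition was 1 library with its own peak list, so no test between conditions was possible, and every value below belongs to 1 library. The labels name neither the promoter of the transgene nor whether the selected cells are a clone.

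Keratins are the intermediate filament proteins of epithelia. A type I and a type II keratin pair to build each filament, and the pair in use marks the kind of epithelium: KRT8 with KRT18, and often KRT7 and KRT19, in simple epithelia such as endometrium, KRT5 with KRT14 in basal epidermis, KRT1 with KRT10 in its upper layers, and other sets in the hair shaft and its inner root sheath. KRTAP proteins are small, rich in cysteine or in glycine and tyrosine, and crosslink the keratin filaments of hair. Their genes have no introns and lie in clusters of near copies.

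All members fell into 6 clusters. The type II keratins and the type I gene KRT18 lay together on chromosome 12 (27 genes, 52168996 to 52952906). The other type I keratins lay on chromosome 17 (40654665 to 41624575), where a run of 34 KRTAP genes stood between 12 keratins at the lower coordinates and 16 at the higher. Chromosome 21 had a lower KRTAP cluster of 33 genes (30281309 to 31038476) and a higher one of 16 (44538981 to 44698044). Chromosome 11 had clusters of 6 and 5 KRTAP5 genes. Coordinates are GRCh38 throughout.

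Of the 149 members, 114 matched an entry of the RefSeq promoter table (GRCh38.p14), which also gives strand and start. The 250 bases before the start are shown for 7 members that the results turn on: 3 KRTAP genes of chromosome 17 among the 10 of highest fold in at least 1 library, all called in both, 1 of chromosome 21 with none, 1 type II keratin with summits at both ends, and a pair of near-identical hair keratins of which 1 had a summit in both libraries and the other in 1 alone. Capitals mark TATAAA, the TATA box core, found on either strand.
KRTAP9-9: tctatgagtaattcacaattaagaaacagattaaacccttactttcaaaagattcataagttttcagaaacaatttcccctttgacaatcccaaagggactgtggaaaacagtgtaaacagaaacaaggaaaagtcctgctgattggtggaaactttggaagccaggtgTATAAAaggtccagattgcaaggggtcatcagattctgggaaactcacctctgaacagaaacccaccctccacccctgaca
KRTAP9-2: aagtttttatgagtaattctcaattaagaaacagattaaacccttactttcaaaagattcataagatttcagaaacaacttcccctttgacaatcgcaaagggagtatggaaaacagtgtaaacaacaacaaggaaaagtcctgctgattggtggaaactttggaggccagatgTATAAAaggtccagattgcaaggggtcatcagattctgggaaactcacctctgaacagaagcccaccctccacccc
KRTAP4-7: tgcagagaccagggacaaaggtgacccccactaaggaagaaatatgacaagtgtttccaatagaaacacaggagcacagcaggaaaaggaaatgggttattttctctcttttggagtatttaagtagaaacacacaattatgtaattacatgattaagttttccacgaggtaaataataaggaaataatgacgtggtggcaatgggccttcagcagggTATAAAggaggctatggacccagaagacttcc
KRTAP13-1: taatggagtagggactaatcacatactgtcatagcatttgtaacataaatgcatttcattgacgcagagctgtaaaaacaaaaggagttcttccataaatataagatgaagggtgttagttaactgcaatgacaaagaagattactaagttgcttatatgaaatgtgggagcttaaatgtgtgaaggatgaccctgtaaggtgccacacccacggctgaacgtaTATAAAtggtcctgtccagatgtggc
KRT3: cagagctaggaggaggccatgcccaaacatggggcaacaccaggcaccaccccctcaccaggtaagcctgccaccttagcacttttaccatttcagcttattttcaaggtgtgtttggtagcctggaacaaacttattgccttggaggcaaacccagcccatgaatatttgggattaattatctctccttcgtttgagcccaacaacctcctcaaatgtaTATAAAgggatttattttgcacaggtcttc
KRT37: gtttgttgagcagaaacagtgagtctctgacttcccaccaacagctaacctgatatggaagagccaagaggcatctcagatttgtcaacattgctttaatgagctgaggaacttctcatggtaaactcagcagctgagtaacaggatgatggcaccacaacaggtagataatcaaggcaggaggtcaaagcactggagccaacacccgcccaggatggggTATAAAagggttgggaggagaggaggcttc
KRT38: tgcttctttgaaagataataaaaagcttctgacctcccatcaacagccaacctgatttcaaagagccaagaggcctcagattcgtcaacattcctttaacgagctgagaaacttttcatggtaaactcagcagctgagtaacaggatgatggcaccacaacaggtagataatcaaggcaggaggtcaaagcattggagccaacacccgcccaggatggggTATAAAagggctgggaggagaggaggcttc

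These stretches lie at chr17:41255134-41255383, plus strand (KRTAP9-9), chr17:41226398-41226647, plus strand (KRTAP9-2), chr17:41083900-41084149, plus strand (KRTAP4-7), chr21:30395781-30396030, plus strand (KRTAP13-1), chr12:52796118-52796367, minus strand (KRT3), chr17:41424586-41424835, minus strand (KRT37) and chr17:41440984-41441233, minus strand (KRT38). Each is written 5′ to 3′ on the strand of its gene. The TATAAA of KRT37, KRT38 and KRT3 began 30 bases before the start, that of KRTAP4-7 32 bases and that of KRTAP13-1 26 bases. KRTAP9-9 and KRTAP9-2 had it 81 and 76 bases before the listed start. The 300-base windows of KRTAP9-9 and KRTAP9-2 were 92.8% identical to each other and those of KRT37 and KRT38 90.1%. The summits of these genes lie farther downstream than the windows, so identity at the summits was not measured. Reads of one copy may be placed on the other, which was not tested.

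Some letters that the rule did not use were more frequent among the members than over all promoters. TATAAA stood on either strand in the 250 bases of 83 of 114 members (72.8%), against 9.42% of 15101 promoters of protein-coding genes. At 25 to 35 bases before the start, on the strand of the gene, it stood in 48 members (42.1%) against 3.65%. CCAAT, on either strand, stood in 48 members (42.1%) against 34.2%. CTTTGA, a core that LEF1 and its relatives can bind and that is known from hair keratin promoters, stood in 35 members (30.7%) against 9.56%. It was uneven: 70% in the higher run of chromosome 17 keratins and 39.4% in the chromosome 17 KRTAP run. The chromosome 12 keratins had 14.3% and the higher chromosome 21 cluster 6.67%. The members had a median GC content of 41.6% and a median of 2 CG dinucleotides, against 62.4% and 17 over all. The olfactory receptor genes, another clustered family, were also poor in both, with a median GC content of 37.2% and 1 CG dinucleotide. Of their 313 promoters 33.2% held TATAAA, and 0 held it at 25 to 35 bases before the start. CCAAT stood in 37.7% of them and CTTTGA in 17.25%. Of KRTAP genes with no called summit at an end in either library, 20 of 26 held TATAAA, and of those with one in both, 37 of 45. A match is a description of the letters only.

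In control 170334 summits were listed, and with overexpression 112212. The number of reads piled up at a summit was recovered from the fold and p-value deposited for it. The lowest pileup called where the surroundings were at the genome average was 6 reads in each library. Over the summits of chromosomes 1 to 22 the median pileup was 12 reads in control and 13 with overexpression.

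Peaks were read by their summits, the position of highest read pileup, and a gene was counted where a summit lay within 1000 bp of either end. Such a gene-end summit was called at 87 of 149 members (58.4%) in control and at 89 (59.7%) with overexpression. Over all 19126 genes the shares were 54.4% and 65.1%, so as a whole the family stood near the background in both. The clusters differed widely around it. On chromosome 17 a summit was called at 33 of 34 KRTAP genes in control and at 31 with overexpression. In the lower chromosome 21 cluster it was called at 5 of 33 and at 1. The higher chromosome 21 cluster had 14 and 15 of 16, and the chromosome 12 keratins 23 and 24 of 27. These control counts rest on summits of low fold. The control list was reduced to its 112212 summits of highest fold, as many as in the other list. The counts were then 5 of 16 and 10 of 27. The chromosome 17 KRTAP genes had 31 of 34 and all genes 34%. The overexpression list was not cut, so its counts could not change. Highest-fold gene-end summits of the higher chromosome 21 cluster had a median fold of 3.14 in control and 3.31 with overexpression. For the chromosome 12 keratins the medians were 3.18 and 3.96, and over all genes 3.82 and 4.3. The lower run of chromosome 17 keratins had 1 of 12 in each library, and the higher run 6 and 10 of 16. KRTAP genes are short, and among the 1171 protein-coding genes of at most 2000 bp the shares were 38.3% in control and 40.7% with overexpression. Of 391 olfactory receptor genes, 45 and 21 had a gene-end summit.

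**Figure D1:**
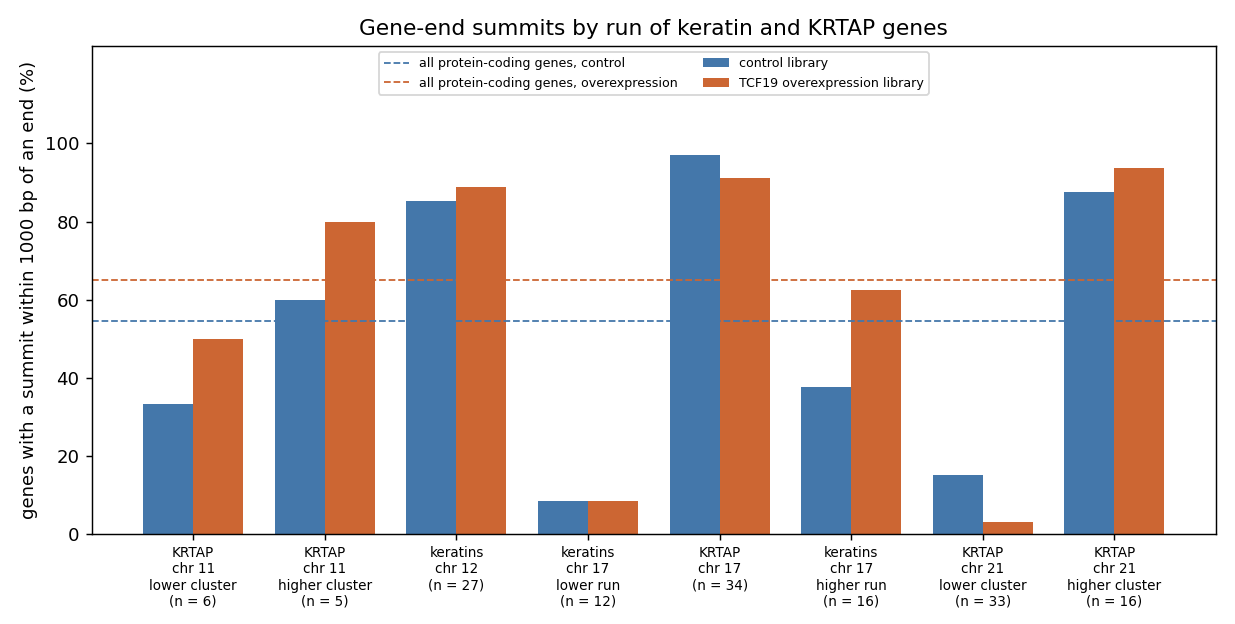
Share of genes with a summit within 1000 bp of an end (percent, vertical axis) in each run of keratin or KRTAP genes, with the number of genes under each pair of bars; blue is the control and orange the TCF19 overexpression library, 1 library each, and dashed lines are the shares over all protein-coding genes (54.4% and 65.1%). The chromosome 17 KRTAP run (33 and 31 of 34) stands above both lines and the lower chromosome 21 cluster (5 and 1 of 33) below.

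The chromosome 17 KRTAP genes carried their summits inside the genes themselves. These genes encode high- and ultrahigh-sulfur proteins of the hair shaft (KRTAP1, KRTAP2, KRTAP3, KRTAP4 and KRTAP9 families, with KRTAP16-1, KRTAP17-1 and KRTAP29-1). A summit lay inside 32 of 34 in control, 30 with overexpression and 30 in both. Among genes of at most 2000 bp the shares were 29.3% in control, 31.6% with overexpression and 22.4% in both. Of the 47 control summits in the run, 36 (76.6%) lay inside its KRTAP genes, and of the 39 overexpression summits 33 (84.6%), while these genes cover 9.69% of the run. KRTAP29-1 was the 1 gene of the run without a gene-end summit in either library.

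Pileups of the single genes of the run were of similar height. The summit of highest fold had a median pileup of 14 reads in each library, ranging from 9 to 25 in control and from 9 to 21 with overexpression. KRTAP9-9 stood highest in control, with 25 reads (95% exact Poisson interval for counting error 16.2 to 36.9, as in all brackets below) and a 9.86-fold enrichment, the authors' value, at 41255681. In the overexpression library it had 13 reads (6.9 to 22.2). KRTAP4-6 followed in control with 20 reads (12.2 to 30.9) against 14 (7.7 to 23.5). KRTAP4-7 had 16 (9.1 to 26.0) and 18 (10.7 to 28.4), and KRTAP9-2 had 15 (8.4 to 24.7) and 20 (12.2 to 30.9). KRTAP9-6 had the highest fold in the overexpression library, 7.83, with 20 reads (12.2 to 30.9) against 13 (6.9 to 22.2) in control. The intervals of the libraries overlapped at each of these genes. KRTAP4-12, KRTAP1-1, KRTAP17-1, KRTAP1-5, KRTAP4-8 and KRTAP4-11 were the others of highest fold in control, with 15 to 20 reads. KRTAP4-2, KRTAP9-7, KRTAP4-3, KRTAP4-11, KRTAP9-4, KRTAP4-1 and KRTAP1-1 were those in the overexpression library, with 15 to 21 reads.

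By family, all 4 KRTAP1, all 4 KRTAP2 and all 8 KRTAP9 genes had a gene-end summit in both libraries, as had 11 of 12 KRTAP4 and 2 of 3 KRTAP3 genes. KRTAP2 summits were the lowest in control, with a median of 9 reads against 12 in the overexpression library. The local background at these summits was low. It is the read density around a summit implied by the deposited fold and p-value, given as a multiple of the genome average of the library. Whether it was taken from the library itself, the reads of the summit included, or from an input is not stated. Its median over the run was 1 in control and 1.24 with overexpression. The highest values were 2.09 and 1.99. Families taken as near copies make up most of the run, and a read may sit on another copy than its own. Window identity to the closest member was 76% to 93% for KRTAP9 and 50% to 92% for KRTAP4. It was 52% to 64% for KRTAP1 and 61% to 72% for KRTAP2. KRTAP3, outside the grouping, had 60%. The 6 genes outside the grouping (KRTAP3-1, KRTAP3-2, KRTAP3-3, KRTAP16-1, KRTAP17-1 and KRTAP29-1) had a summit in 5 and in 4 cases.

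**Figure D2:**
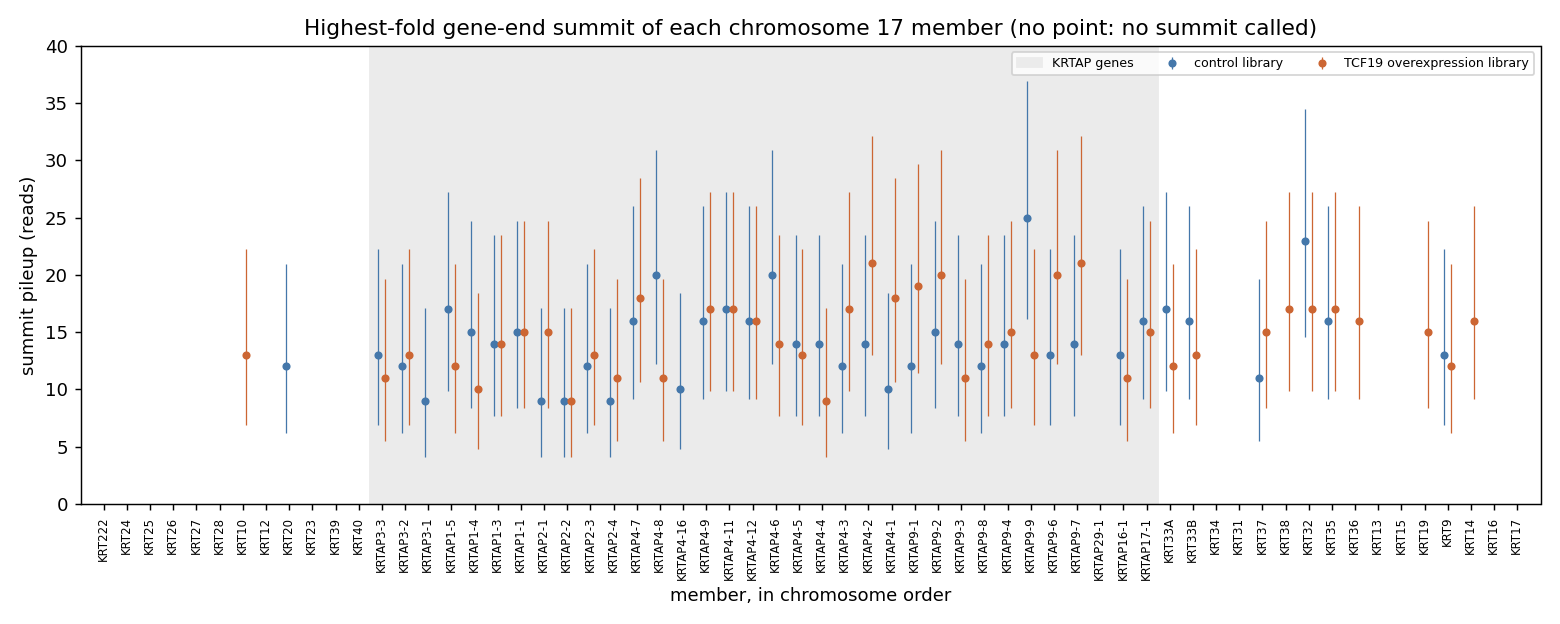
Summit pileup in reads (vertical axis) of the highest-fold gene-end summit at each chromosome 17 member in chromosome order, blue for the control and orange for the TCF19 overexpression library, with exact Poisson 95% intervals for counting error; grey marks the KRTAP genes, and a missing point means no called summit. Summits stand at nearly every KRTAP gene and at few of the 12 keratins to the left.

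Measured from the RefSeq start, the summits of the run lay downstream of it, which already follows where a summit lies inside its gene. Of the 33 genes with a listed start, 32 had a summit within 1000 bp of it in control and 30 with overexpression. Over all 15101 genes with a start the shares were 51.2% and 63.9%. The summit of highest fold lay downstream at 31 of 32 and at 29 of 30, against 70.0% and 68.7% of all genes that had one. Its median distance was 335 bp (control) and 346.5 bp (overexpression), while the medians over all genes were 190 and 153 bp. The summit of KRTAP9-9 lay 297 and 355 bp downstream of the start shown above, that of KRTAP9-2 228 and 351 bp, and that of KRTAP4-7 377 and 270 bp. Short genes that are no members had medians of 252 and 208.5 bp, and the summit lay downstream in 185 of 247 and in 210 of 282. The same run of genes gave nearby summits in the libraries. Of 31 genes with a gene-end summit in both, 17 had those of highest fold within 100 bp and 29 within 300 bp of each other.

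**Figure D3:**
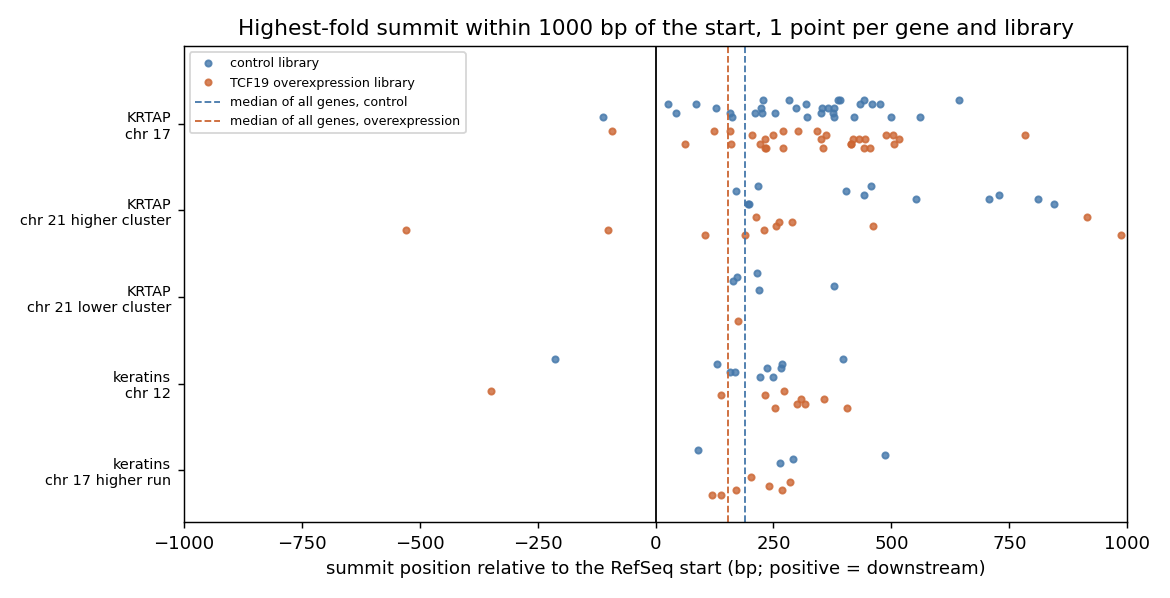
Position of the highest-fold summit within 1000 bp of the RefSeq start (horizontal axis, bp, positive downstream), 1 point per gene and library, blue for control and orange for TCF19 overexpression; vertical spread within a row carries no value, and dashed lines are the medians of all genes (190 and 153 bp). Nearly all points of the chromosome 17 KRTAP run lie downstream, with medians of 335 and 346.5 bp.

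The KRTAP clusters of chromosome 21 stood apart from each other. The lower cluster holds the glycine- and tyrosine-rich KRTAP families (KRTAP6, KRTAP8, KRTAP19, KRTAP20, KRTAP21) and others. Of its 33 genes, 28 had no gene-end summit in either library. KRTAP6-3 was the 1 gene with a summit in both, at 7 reads (2.8 to 14.4) in control against 12 (6.2 to 20.96) with overexpression. KRTAP13-1, whose upstream bases are shown above, had none. KRTAP23-1 (11 reads), KRTAP13-2 (9), KRTAP19-5 (7) and KRTAP11-1 (6) had one in control alone, all where the local background was the genome average. A missing summit means only that no peak was called, and called pileups at that background began at 6 reads. In this cluster 4 genes in control and 1 with overexpression had a summit inside.

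The higher chromosome 21 cluster lies within TSPEAR (44497893 to 44711572), a gene that spans all 16 of its KRTAP10 and KRTAP12 genes, so these summits cannot be assigned to a KRTAP gene alone. KRTAP10 and KRTAP12 encode high-sulfur proteins. The highest-fold summits had a median of 18 reads in each library. Local background was higher than on chromosome 17, with medians of 3.48 and 3.32 times the genome average. KRTAP10-7 had 29 reads (19.4 to 41.6) against 18 (10.7 to 28.4), at different sites (44602547 and 44601511). Near that control summit the overexpression library had 15 reads (8.4 to 24.7) at 44602359. Inside the gene control had 16 (9.1 to 26.0) at 44601000. KRTAP12-3 had 23 reads (14.6 to 34.5) and was called in control alone, while KRTAP10-4 (18 reads) and KRTAP10-12 (17 reads) were called in the overexpression library alone. Of the 13 genes with a gene-end summit in both libraries, 4 had those of highest fold within 300 bp of each other, against 29 of 31 on chromosome 17. This difference was not tested.

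The KRTAP5 genes of chromosome 11 had a summit at 5 of 11 in control and 7 with overexpression. KRTAP5-9 had 19 reads (11.4 to 29.7) and 13 (6.9 to 22.2), and KRTAP5-7 had 17 (9.9 to 27.2) and 11 (5.5 to 19.7). KRTAP5-3 (18 reads) and KRTAP5-11 (14 reads) had one in the overexpression library alone. KRTAP5-4, KRTAP5-5, KRTAP5-6 and KRTAP5-10 had none.

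The keratins of chromosome 12 had summits in nearly every gene, on a high local background. A summit lay inside all 27 genes in each library. Compared by size, all 21 of the chromosome 12 keratins of 3000 to 15000 bp held one in each library, against 53.9% and 60.5% of the 5372 genes of that size, and against 20 and 19 of 27 chromosome 17 keratins of that size. The local background at the highest-fold gene-end summits had a median of 3.55 times the genome average in control (1.85 to 5.69) and of 3.32 with overexpression (2.11 to 5.78). Over all genes with a summit the medians were 1.74 and 2.12. The flanks were alike: summits in the 500 kb on each side had a median local background of 4.06 and 4.02, against 1.42 and 1.89 on the whole chromosome. The part that this background plays in the number of summits was not tested.

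Many chromosome 12 keratins had summits at both ends of the gene. KRT3, a keratin of the cornea, had 24 reads (15.4 to 35.7) at 52795852 in control and 23 at 52795808 with overexpression, 265 and 309 bp downstream of its start. Near its other end it had summits of 23 and 18 reads in control and 1 of 22 with overexpression. It was 1 of 8 chromosome 12 keratins with both ends marked in both libraries. The others were the hair keratin KRT83, the inner root sheath keratins KRT71 and KRT73, the type II keratins KRT6C, KRT75 and KRT76, and KRT8. On chromosome 17, KRT33A also had both. Of the 27 chromosome 12 keratins, 13 had both ends marked in control and 10 with overexpression (48.1% and 37%). Over 17339 genes longer than 3000 bp the shares were 5.75% and 6.42%, and over the 27 chromosome 17 keratins of that length 1 and 2 genes had both.

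KRT1, the type II keratin of the upper epidermis, had the highest fold of the keratins in the overexpression library, 6.94, with 27 reads (17.8 to 39.3) against 18 (10.7 to 28.4) in control. KRT76, a keratin of the palate, had 22 reads (13.8 to 33.3) in both and the highest fold in control, 5.41. KRT6C had 28 reads (18.6 to 40.5) in control against 17 (9.9 to 27.2), with the summits of highest fold at opposite ends. Near the control summit the overexpression library had 13 reads (6.9 to 22.2), and near the overexpression summit control had 13. KRT6A and KRT6B, near copies of KRT6C, had 22 and 27 reads in control and 22 and 24 with overexpression. The KRT6A summits of highest fold also lay at opposite ends. KRT5, the keratin of basal epidermis, had 23 reads (14.6 to 34.5) and 21 (13.0 to 32.1), 236 and 356 bp downstream of its start. KRT2 had 21 reads (13.0 to 32.1) and 23 (14.6 to 34.5), with summits 5 bp apart at 52651962 and 52651957. At each of these genes the intervals of the libraries overlapped.

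The hair keratins of chromosome 12 were in the same range as the other type II keratins. Of 6 hair keratins 5 had a gene-end summit in both libraries, and KRT82 had none. Their highest-fold summits had medians of 25 reads in control and 26 with overexpression, against 22.5 and 22 in the group of epidermal and other non-hair type II keratins. KRT84 had 25 reads (16.2 to 36.9) and 28 (18.6 to 40.5), and KRT85 had 27 (17.8 to 39.3) and 30 (20.2 to 42.8). These KRT85 summits lay at opposite ends of the gene. Near the control summit of KRT85, the overexpression library had 22 reads (13.8 to 33.3). KRT81 lies within the listed span of KRT86, so summits inside it count for both. Of the 4 inner root sheath genes KRT71, KRT73 and KRT74 had one in both, and KRT72 none. KRT77 was the remaining gene without a summit at an end, and KRT80 had one in the overexpression library alone, with 24 reads (15.4 to 35.7).

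**Figure D4:**
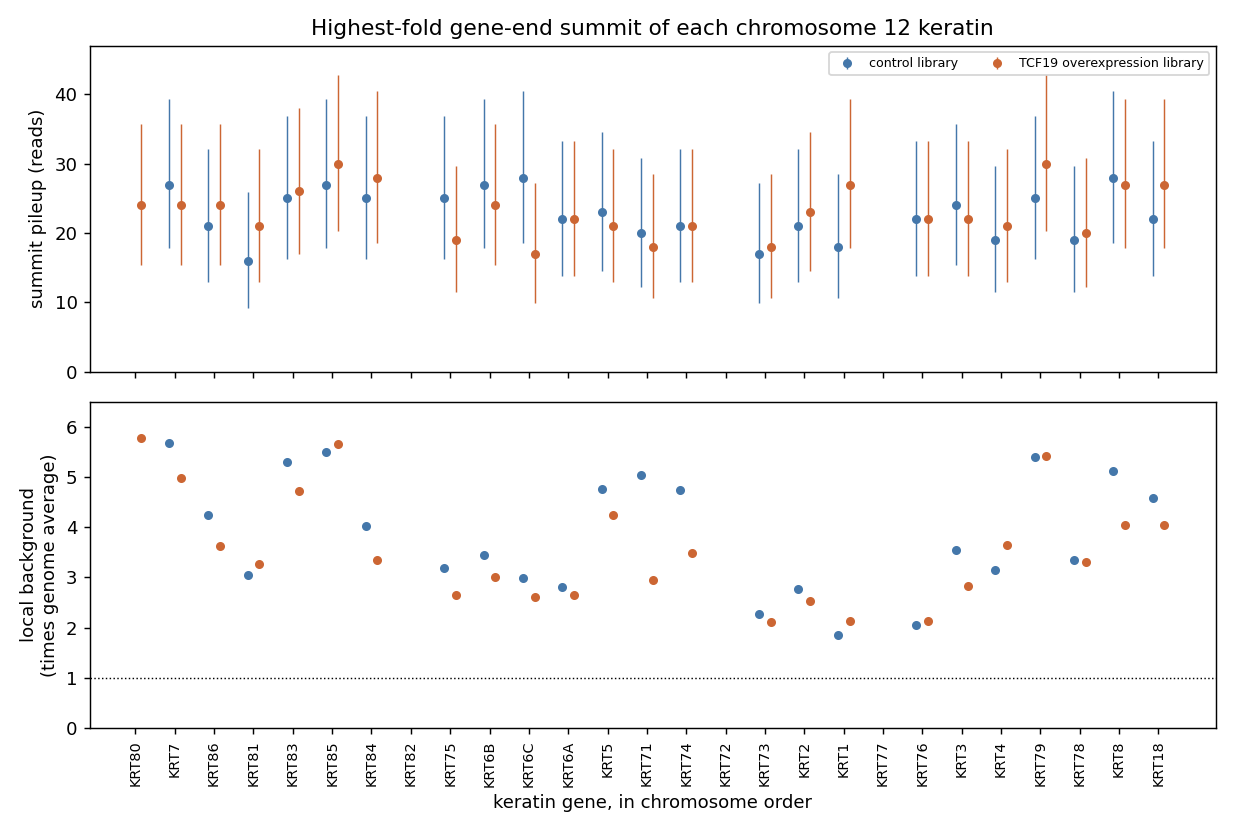
Upper panel: pileup in reads of the highest-fold gene-end summit of each chromosome 12 keratin in chromosome order, with exact Poisson 95% intervals; lower panel: local background at that summit as a multiple of the genome average (dotted line, 1). Blue is the control and orange the TCF19 overexpression library. The points range from 16 to 30 reads, and the lowest local backgrounds are 1.85 and 2.11. At some genes the points of the libraries come from opposite ends.

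Of the simple-epithelial keratins, the set known from endometrium, KRT7, KRT8 and KRT18 had a gene-end summit in both libraries, and KRT19 in the overexpression library alone. In control their folds were 2.78 to 3.18, against a median of 3.27 over all keratins with a summit, and their local backgrounds 4.59 to 5.69, against 3.17. KRT7 (chromosome 12, 52233243 to 52255853) had 27 reads (17.8 to 39.3) at 52233702 in control, a 2.80-fold enrichment at 5.69 times the genome average. In the overexpression library it had 24 reads (15.4 to 35.7) at 52233857, 3.08-fold. At its lower end KRT8 had 28 reads (18.6 to 40.5) at 52897470 in control and 24 at 52897444 with overexpression.

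KRT8 and KRT18 overlap in the gene table, since KRT8 is listed from 52897191 to 52949860 and KRT18 from 52948855 to 52952906. The summit at the upper end of KRT8 and that at the lower end of KRT18 are therefore the same. It had 22 reads (13.8 to 33.3) at 52949311 in control, and 27 (17.8 to 39.3) at 52949033 with overexpression. It was the 1 summit counted at more than 1 member in each library. The RefSeq start used for KRT8, the most upstream one listed, at 52926469, had no summit within 1000 bp in either library. The nearest lay 2046 bp downstream in control, at 11 reads (5.5 to 19.7), and 2420 bp downstream with overexpression, at 18 (10.7 to 28.4). Farther inside KRT8, the overexpression library had 20 reads (12.2 to 30.9) at 52903670 and 22 (13.8 to 33.3) at 52904814. Control had no summit between 52898576 and 52913329. Other starts of KRT8 were not looked at. KRT19 (chromosome 17, 41523617 to 41528308) had 15 reads (8.4 to 24.7) at 41527514 in the overexpression library, 2.91-fold, and no summit inside in control. With the control list reduced to 112212 summits as above, 0 of the 4 genes were called in control.

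The type I keratins of chromosome 17 had few gene-end summits in the lower run, and in the higher run 6 of 16 in control and 10 with overexpression (37.5% and 62.5%). In the lower run, which holds inner root sheath keratins and KRT10, KRT12, KRT20 and KRT23 among others, KRT10 was called in the overexpression library alone and KRT20 in control alone. KRT10, the partner of KRT1, had 13 reads (6.9 to 22.2) at 40818979. KRT20, a keratin of the gut lining, had 12 (6.2 to 20.96) at 40885051. The other 10 genes had none in either library, and all 4 inner root sheath type I genes were among them. Within 2000 bp of the ends the lower run had 8 of 12 genes in control and 4 with overexpression, and the higher run 11 and 15 of 16, against 65% and 73% of all genes.

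In the higher run, KRT33A, KRT33B, KRT37, KRT32, KRT35 and KRT9 had a gene-end summit in both libraries. KRT32, a hair keratin, had 23 reads (14.6 to 34.5) in control against 17 (9.9 to 27.2), with the summits of highest fold at opposite ends. KRT37 had 11 reads (5.5 to 19.7) and 15 (8.4 to 24.7). KRT38, its near-identical neighbour, had 17 (9.9 to 27.2) in the overexpression library and none in control. KRT14, the partner of KRT5, with 16 reads (9.1 to 26.0), and KRT36 with 16 were also called in the overexpression library alone. KRT13, KRT15, KRT16, KRT17, KRT31 and KRT34 had none in either. Of the epidermal pairs, KRT5 and KRT1 were called in both libraries, and their partners KRT14 and KRT10 with overexpression alone.

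Summit density was also counted over whole runs, genes and the space between them together. The higher chromosome 21 cluster had 20.1 summits per 100 kb in control (exact Poisson interval 13.8 to 28.4) and 18.9 (12.7 to 26.9) in the overexpression library, against 4.50 and 3.11 over the chromosome. The chromosome 12 cluster had 16.5 (13.7 to 19.6) and 13.8 (11.3 to 16.6), against 7.76 and 4.81 over its chromosome and 12.6 and 12.7 in its flanks. The chromosome 17 KRTAP run had 14.6 (10.7 to 19.4) and 12.1 (8.6 to 16.5), against 7.07 and 5.86. The lower run of chromosome 17 keratins had 7.82 (5.1 to 11.5) and 3.31 (1.7 to 5.9). The lower chromosome 21 cluster had 3.70 (2.46 to 5.34) and 1.19 (0.54 to 2.26), against 4.50 and 3.11 over its chromosome. The lists differ in length, so densities are to be read within a library.

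**Figure D5:**
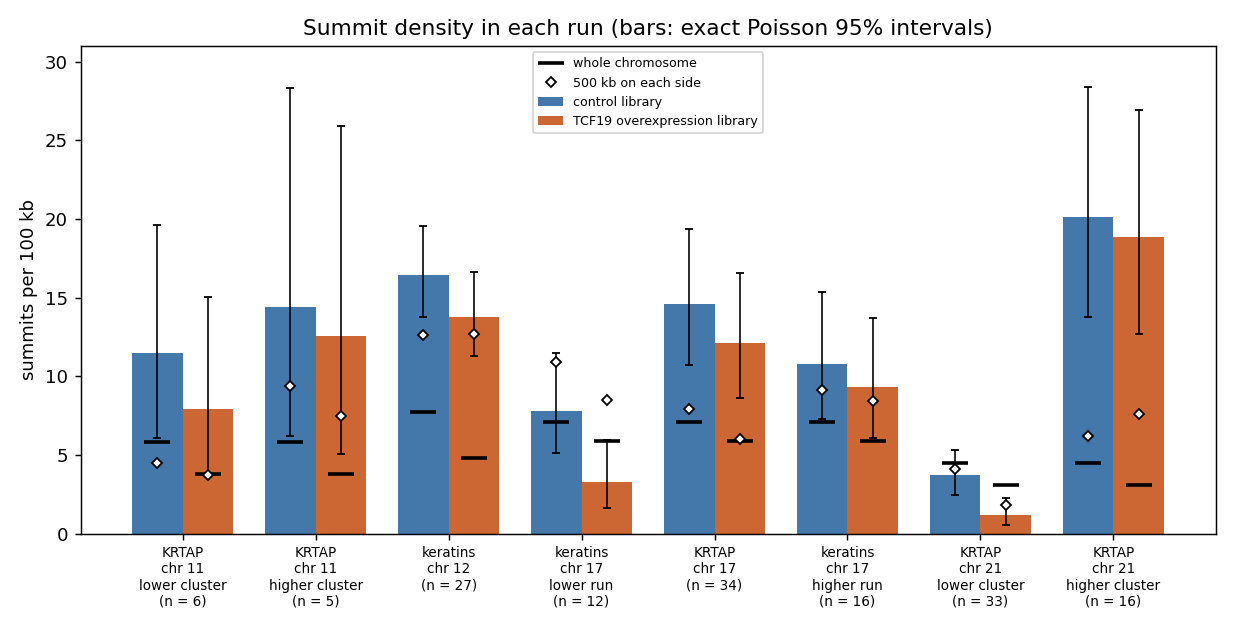
Summits per 100 kb (vertical axis) in each run of members, blue for the control and orange for the TCF19 overexpression library, with exact Poisson 95% intervals for counting error; black dashes are the whole chromosome and diamonds the 500 kb on each side. Bars reach 20.1 and 18.9 in the higher chromosome 21 cluster and 3.70 and 1.19 in the lower.

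Most members had the same call in both libraries. A gene-end summit was present in both at 79 members (53.0%), in control alone at 8 (5.37%), in the overexpression library alone at 10 (6.71%) and in neither at 52 (34.9%). Over all genes the shares were 48.7%, 5.64%, 16.4% and 29.3%. The 8 in control alone were KRT20, KRTAP3-1, KRTAP4-16, KRTAP11-1, KRTAP12-3, KRTAP13-2, KRTAP19-5 and KRTAP23-1. The 10 in the overexpression library alone were KRT10, KRT14, KRT19, KRT36, KRT38, KRT80, KRTAP5-3, KRTAP5-11, KRTAP10-4 and KRTAP10-12. The counts in 1 library alone depend on the depth of the lists: with equal numbers of summits of highest fold they were 5 and 38. Under that setting 37.6% of members were called in control and 59.7% with overexpression, beside 34% and 65.1% of all genes.

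For each of the 79 members, the pileup of the highest-fold gene-end summit in each library was divided by the genome average of that library. These summits need not mark the same site. They lay within 300 bp of each other at 55 of 79 members, and at 13 of 23 on chromosome 12. The log2 ratio of overexpression over control had a median of 0.15, and it was above 0 in 54 of 79. Equal reads in the 2 libraries give 0.15 on this scale, as at KRT76 with 22 reads in each. Over the 9323 genes with a summit in both libraries the median was 0.39, and 7575 were above 0. Keratins and KRTAP genes both had a median of 0.15. The exact Poisson intervals of the 2 pileups overlapped at all 79 members, whether or not the summits marked the same site. The ratios ranged from -0.80 at KRTAP9-9 to 1.00 at KRTAP4-1, which had 10 reads (4.8 to 18.4) in control against 18 (10.7 to 28.4) with overexpression.

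Genes that work with keratins were counted in the same way. Of 20 desmosome and plakin genes, which anchor keratin filaments to the membrane, 10 had a gene-end summit in control and 13 with overexpression. DSC2, PPL, CDSN and EVPL were called with overexpression alone, with 19, 28, 22 and 34 reads, and DSC1 in control alone with 8. Of those called in both, PKP4 had 15 reads (8.4 to 24.7) and 23 (14.6 to 34.5), and DSG2 12 (6.2 to 20.96) and 16 (9.1 to 26.0). Of 20 cornified envelope genes 9 and 8 had one, with KPRP and SPRR1B in control alone and TGM5 in the overexpression library alone. LCE2A had 13 reads (6.9 to 22.2) and 19 (11.4 to 29.7), and LCE3A 15 (8.4 to 24.7) and 21 (13.0 to 32.1). At 10 genes none was called in either library.

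Of the 15 other intermediate filament genes 9 and 13 had a gene-end summit. VIM, the mesenchymal filament gene, was called in control alone with 23 reads (14.6 to 34.5). The lamin genes LMNA, LMNB1 and LMNB2 were called in the overexpression library alone, with 18, 17 and 20 reads, as were PRPH (27) and SYNM (17). NEFL, a neurofilament gene, had 16 reads (9.1 to 26.0) and 25 (16.2 to 36.9), and BFSP1, a lens filament gene, 12 and 19 (11.4 to 29.7). Of 18 regulators of keratin genes 7 and 6 had one. TP63, the master regulator of stratified epithelium, had 29 reads (19.4 to 41.6) and 25 (16.2 to 36.9), 8.35- and 6.49-fold. FOXN1, a regulator of hair keratins, had 21 (13.0 to 32.1) and 22 (13.8 to 33.3). GRHL2 and ZNF750, with 16 reads each, were called in control alone and LEF1, with 20, with overexpression alone. The shares of these 4 lists lie beside 54.4% and 65.1% of all genes, and none was tested.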

How the data were processed

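The files hold 1 peak list per library on hg38. The submitters' processing notes list BWA 0.7.12 and MACS2 2.1.0. For the calling settings, removal of duplicates and input control, the sources used here give nothing. Per summit, the authors deposited a score (the −log10 q-value times 10, cut to a whole number), a fold enrichment (a ratio of pileup to local background), a −log10 p-value and a −log10 q-value, the lowest being 1.30, and a position. A whole-number pileup of up to 400 reads was solved for from the fold and −log10 p, within 0.001. It was recovered for all but 5 of 170334 control and 10 of 112212 overexpression summits. The genome average was 1.58 and 1.43 reads per fragment length. Read totals are not part of the lists. Intervals (95%) cover counting error only, as reads may hold PCR copies.

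Groups came from the genotype label. Gene ends came from RefSeq GRCh38.p14, and strand and starts from its promoter table. Only the most upstream listed start of each gene was used. A summit counted within 1000 bp of either gene end. Counting and recovery were tested on simulated data. Members, classes, lists, tests and alternatives were chosen with earlier results of these data known. Naming covered KRT7, KRT8, KRT18 and KRT19, the 10 members of highest fold per class and library, members called in both or in 1 library and, of each list, those called in 1 library (at most 6) and the 2 of highest mean fold called in both. KRTAP13-1 was picked after its values were seen. The split of chromosome 17 into 3 runs, the distance from starts, the backgrounds by gene length and the motifs were chosen after the files were seen. Clusters were runs of at least 4 members with gaps of at most 500 kb. Python 3.11.15, pandas 2.3.3, scipy 1.17.1 and Biopython 1.88 were used.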

Additional observations from a re-analysis of the deposited data

How the results depend on the processing

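Counts were repeated with windows of 500 and 2000 bp, a −log10 q of at least 3, and equal numbers of summits of highest fold (112212 in each list). They were also repeated with intervals in place of summits (overlap of at least 1 bp), and without the families taken as near copies. That grouping does not follow the measured window identities. With equal numbers, control members went from 87 to 56, control keratins from 30 to 14, control simple-epithelial keratins from 3 to 0, members in both libraries from 79 to 51 and those in control alone from 8 to 5, while those in the overexpression library alone went from 10 to 38. Over all genes the control share went from 54.4% to 34% under this setting, beside 37.6% of members and 25.5% of keratins. The overexpression list is the shorter and loses nothing. Without the families taken as near copies, 82 members remained. Of these, 35 and 35 were called (42.7% in each library, beside 54.4% and 65.1% of all 19126 genes). There were 29 in both and 6 in the overexpression library alone, with KRTAP genes at 13 and 8 of 35. Of these 35 KRTAP genes, 25 were of the lower chromosome 21 cluster, with 4 and 1 called, so the shares reflect which genes were left. The chromosome 17 KRTAP run had 5 and 4 of 6, and the higher chromosome 21 cluster 4 and 3 of 4. The chromosome 12 keratins had 17 and 18 of 21. At −log10 q of at least 3, members in the overexpression library alone numbered 18, and within 2000 bp those in control alone 14. At that q, 47.7% and 53.7% of members were called, beside 39.3% and 56.5% of all genes. Within 2000 bp the shares were 71.1% and 68.5%, beside 65% and 73%. Shares of all genes called in 1 library alone are not given for these settings. The chromosome 17 KRTAP run had 29 to 33 of 34 genes called under every setting that kept its families. With equal numbers, control summits per 100 kb went to 1.76 and 5.03 in the lower chromosome 11 and higher chromosome 21 clusters, from 10.8 to 8.14 in the whole chromosome 17 cluster of keratins and KRTAP genes, and to 5.61 on chromosome 12. At −log10 q of at least 3 they went to 8.80 in the higher chromosome 21 cluster, 8.25 in the whole chromosome 17 cluster and 10.97 on chromosome 12, and overexpression to 10.1 on chromosome 12. By run, equal numbers took the control counts to 10 of 27 for the chromosome 12 keratins, 5 of 16 for the higher chromosome 21 cluster, 2 of 33 for the lower, 3 of 16 for the higher run of chromosome 17 keratins and 2 of 5 for the higher chromosome 11 cluster. At −log10 q of at least 3, the chromosome 21 clusters had 8 of 16 and 2 of 33 in control, the higher run of chromosome 17 keratins 4 of 16 in control, and the higher chromosome 11 cluster 2 of 5 with overexpression. Within 2000 bp the lower chromosome 21 cluster had 9 and 3 of 33. The lower run of chromosome 17 keratins had 1 and 0 of 12 within 500 bp and 2 of 12 in each library by intervals. No paired analysis was possible because each group has 1 library. Depth limits the calls: at the genome average a pileup under 6 reads was not called.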

Other observations

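Other clustered families were counted after the chromosome 17 KRTAP genes had been seen, so they are given as values only. The late cornified envelope (LCE) genes of epidermis, like KRTAP genes small and rich in cysteine, had a summit inside the gene at 15 of 19 in control, 14 in the overexpression library and 14 in both, at a median local background of 1.07 and 1.02 times the genome average. The SPRR genes, also of the cornified envelope, had one inside at 7 and 3 of 11. None of the 13 interferon alpha genes had one in either library, inside or at an end. The beta-defensin genes, which are longer (median 4511 bp, against 938.5 bp in the chromosome 17 KRTAP run), had one inside at 7 and 3 of 39, and the bitter taste receptor genes at 2 and 1 of 25. The chromosome 17 KRTAP genes had one at 32 and 30 of 34.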
